A study of Mus musculus with 20 samples.

Results

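The cytochrome P450 enzymes of the Cyp2c subfamily that are characteristic of mouse liver were followed through 28 and 90 days of phenobarbital treatment. Of the 9 genes considered (Cyp2c29, Cyp2c37, Cyp2c38, Cyp2c39, Cyp2c40, Cyp2c44, Cyp2c50, Cyp2c54 and Cyp2c70), 8 were represented by 1 probe set each among the 45037 of the array, found by gene symbol. Cyp2c40 was not analysed here, and Cyp2c44 was found under its current symbol Cyp2c23. All 8 probe sets were among the 35662 that passed the filter on dim signals. The samples were left lateral liver lobes of 20 male CD-1 mice, an outbred stock, in 4 groups of 5 with 1 array per mouse. PB mice at 28 days and PB mice at 90 days had received phenobarbital sodium by mouth at 80 mg/kg/day, and CMC mice at 28 days and CMC mice at 90 days had received the methylcellulose vehicle alone (0 mg/kg/day of phenobarbital). The tissue was frozen on the day after the last administration, and the age of the mice was not given in the sources used here. An outbred stock differs genetically between mice, so the spread within a group includes inherited differences.

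P450 enzymes are haem proteins of the endoplasmic reticulum that insert an oxygen atom into drugs, steroids and fatty acids with electrons passed on by P450 reductase. The Cyp2c genes form a large cluster on mouse chromosome 19, and several of their products turn arachidonic and linoleic acid into epoxides and hydroxy acids besides clearing drugs. Phenobarbital, a barbiturate sedative, is the standard means of switching on CAR, the constitutive androstane receptor encoded by Nr1i3, which binds DNA together with the retinoid X receptor at spaced repeats of a short half-site. Cyp2c29 and Cyp2c37 are textbook CAR targets in mouse liver, whereas Cyp2c70 is known for making the muricholic acids of rodent bile.

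The sequences before the start sites are shown for 4 members because 2 of them (Cyp2c37 and Cyp2c50) belong to genes whose levels were higher after phenobarbital, and the others (Cyp2c29 and Cyp2c70) to genes whose levels differed little. Promoters of 6 of the 8 measured members were matched by gene ID in RefSeq (build GRCm38.p6), with 2 start sites for Cyp2c39. The stretches are Cyp2c37, chr19:39992174-39992423, plus strand, Cyp2c50, chr19:40089429-40089678, plus strand, Cyp2c29, chr19:39286835-39287043, plus strand, and Cyp2c70, chr19:40187287-40187536, minus strand. Capitals mark matches, on either strand, to CAAAGTNNA (an HNF4-type motif), AGTTCA or AGGTCA (half-sites of nuclear receptors) and TATAAA.
Cyp2c37: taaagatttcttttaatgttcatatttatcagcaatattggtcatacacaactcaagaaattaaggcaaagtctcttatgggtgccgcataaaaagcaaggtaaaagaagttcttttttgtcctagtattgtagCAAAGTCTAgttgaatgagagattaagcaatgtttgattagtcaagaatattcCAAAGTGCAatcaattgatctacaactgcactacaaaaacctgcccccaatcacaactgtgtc
Cyp2c50: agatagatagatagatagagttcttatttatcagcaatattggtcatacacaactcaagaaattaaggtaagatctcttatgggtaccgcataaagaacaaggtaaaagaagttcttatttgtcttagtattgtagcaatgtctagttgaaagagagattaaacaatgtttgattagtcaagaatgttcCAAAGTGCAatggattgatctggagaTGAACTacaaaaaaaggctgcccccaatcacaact
Cyp2c29: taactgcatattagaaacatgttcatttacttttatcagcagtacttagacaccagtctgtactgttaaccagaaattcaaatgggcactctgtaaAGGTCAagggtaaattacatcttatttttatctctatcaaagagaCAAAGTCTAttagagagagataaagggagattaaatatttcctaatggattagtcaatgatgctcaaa
Cyp2c70: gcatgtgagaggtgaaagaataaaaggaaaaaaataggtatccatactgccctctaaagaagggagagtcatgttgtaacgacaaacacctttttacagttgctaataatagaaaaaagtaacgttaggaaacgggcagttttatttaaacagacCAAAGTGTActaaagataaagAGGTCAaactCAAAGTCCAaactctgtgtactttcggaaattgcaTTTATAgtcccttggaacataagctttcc

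The windows of Cyp2c37 and Cyp2c50 were the most alike of the 21 pairs compared, with 84.3% identical positions (215 of 255 columns of the gapped alignment) of the 250 bases before each start. Cyp2c38 and the first start of Cyp2c39 shared 75.8%, and Cyp2c29 and the first start of Cyp2c39 shared 74.1%. Cyp2c37 shared 57.6% with Cyp2c29 and 50% with Cyp2c70. Cyp2c54 lies between Cyp2c37 and Cyp2c50 on the chromosome. CAAAGTNNA was found in all 7 member windows, at positions -116 and -63 from the start site in Cyp2c37 and at -61 in Cyp2c50. It was found in 3.57% of all 32851 promoter windows of the same length. AGTTCA was found in Cyp2c50 and in the second start of Cyp2c39 (11.8% of all windows), AGGTCA in Cyp2c29, Cyp2c70 and the first start of Cyp2c39 (14% of all windows), and TATAAA in Cyp2c29, Cyp2c38 and Cyp2c70 (12.4% of all windows). A further CAAAGTNNA and the TATAAA of Cyp2c29, at positions -45 and -19, lie beyond the stretch printed. That stretch was cut where the annotated gene begins, which left 209 bases. Neither half-site repeated directly with 4 bases between was found in the 7 windows. Over all windows these exact repeats were found in only 0.00913% (AGTTCA) and 0.0152% (AGGTCA), so their absence from 7 windows carries little information. Mixed or imperfect repeats were not searched, and distant enhancers lie outside the windows.

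The values are log2 intensities made by RMA, which corrects background, brings the arrays to 1 distribution and combines the probes of a probe set, so that 1 unit is a 2-fold difference. Levels are comparable between mice for 1 probe set but not between probe sets. On each array the 25th percentile lay between 3.96 and 4.26 and the highest signal between 15.28 and 15.34. Cyp2c29 and Cyp2c70, both near 14, were thus close to the top of the scale, and Cyp2c37 in CMC mice was the member nearest to the dim end. The arrays of PB replicate 5 at 28 days and PB replicate 3 at 90 days stood apart on the first principal component of all tested probe sets (52.6% of the variance), with scores of -145.6 and -93.7 against a range of -56.7 to 69.8 in the other 18. Results with and without both arrays are given below. The 10 markers of hepatocytes used here, Alb and Ttr among them, had mean levels of 13.48 to 14.24 in PB mice and 13.99 to 14.34 in CMC mice at 28 days, and of 13.85 to 14.36 in PB mice and 14.25 to 14.37 in CMC mice at 90 days. The tissue label and the markers therefore matched. In whole liver, fewer cells of a type and less RNA per cell cannot be told apart.

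At 28 days phenobarbital raised 3 members, Cyp2c37, Cyp2c54 and Cyp2c50, by 4.58-, 4.14- and 2.34-fold, and no member was called lower. These were 3 of 8 members called higher at an adjusted p under 0.05, where 0.0336% of all tested probe sets (12 of 35662) were called higher and 0 were called lower. At 90 days Cyp2c54 and Cyp2c37 were raised by 4.05- and 3.76-fold, 2 of 8 members against 0.0645% of all tested probe sets (23 of 35662), again with 0 called lower. At an unadjusted p under 0.05 there were 4 of 8 members at each duration (these 3 and Cyp2c29), beside 2.82% of all tested probe sets at 28 days and 4.43% at 90 days. Cyp2c50 was 2.001-fold higher at 90 days with non-overlapping groups and an adjusted p of 0.077. The median change of the 8 members was 0.58 at 28 days and 0.20 at 90 days, beside 0.01 and 0.02 over all tested probe sets, and 6 of 8 changes were positive at each duration. The remaining 5 members, Cyp2c29, Cyp2c70, Cyp2c38, Cyp2c39 and Cyp2c44, were not called at either duration. The members were chosen with earlier results of these data known, so the counts describe them and are no separate evidence. All p-values of this kind are from limma, fitted to the whole table with Benjamini-Hochberg adjustment.

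**Figure D1:**
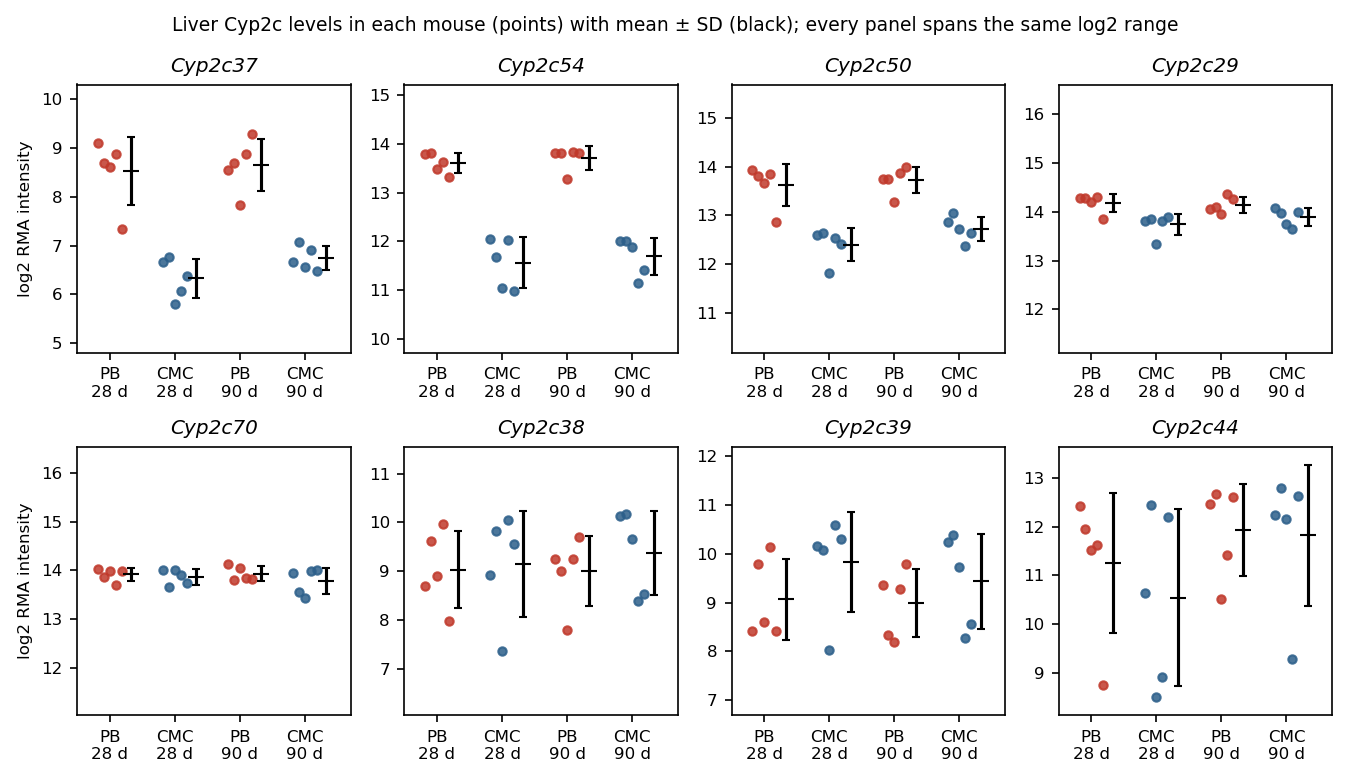
Log2 RMA intensity of each member (1 panel per gene) in every mouse, with PB (red) left of CMC (blue) at each duration and the mean ± SD of 5 mice beside the points. In the panels of Cyp2c37, Cyp2c54 and Cyp2c50 every PB mouse lies above every CMC mouse of its duration; in the other 5 panels the groups overlap.

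Cyp2c37 (probe set 1419094_at) encodes an enzyme that hydroxylates arachidonic acid in mouse. Its log2 levels were 9.12, 8.70, 8.61, 8.89 and 7.34 in PB mice at 28 days, against 6.66, 6.77, 5.81, 6.07 and 6.37 in CMC mice at 28 days. The groups did not overlap, although the fifth PB mouse lay well below the other 4 and only 0.57 above the highest CMC mouse. The means were 8.53 ± 0.69 in PB mice and 6.34 ± 0.40 in CMC mice (SD, n = 5 each), a change of 2.20 ± 0.30 (SE, adjusted p = 0.00184; limma) or 4.58-fold with a 95% interval of 2.98 to 7.03. At 90 days the levels were 8.56, 8.70, 7.84, 8.88 and 9.30 in PB mice, against 6.67, 7.07, 6.57, 6.92 and 6.48 in CMC mice. Again every PB mouse exceeded every CMC mouse, and the third PB mouse was the lowest of its group. The change was 1.91 ± 0.30 (SE, adjusted p = 0.00591; limma), or 3.76-fold (2.45 to 5.78), between means of 8.66 ± 0.53 in PB mice and 6.74 ± 0.25 in CMC mice (SD, n = 5 each). Its levels spanned an 11.2-fold range between the lowest and the highest of the 20 mice. Without the 2 arrays that stood apart the change was 2.49 at 28 days and 2.11 at 90 days, and with only the 10 arrays of the 28-day groups in the fit the adjusted p at 28 days was 0.0957.

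Cyp2c54 (probe set 1455457_at), whose product epoxidises arachidonic and linoleic acid in mouse, had the smallest p-value of the 8 members at both durations. At 28 days its log2 levels were 13.79, 13.82, 13.48, 13.63 and 13.32 in PB mice, against 12.05, 11.68, 11.05, 12.04 and 10.98 in CMC mice. The lowest PB mouse stood 1.27 above the highest CMC mouse, the widest gap of the 8 members at that duration. The means were 13.61 ± 0.21 in PB mice and 11.56 ± 0.52 in CMC mice (SD, n = 5 each), a change of 2.05 ± 0.22 (SE, adjusted p = 8.13e-05; limma) or 4.14-fold (3.03 to 5.65). At 90 days the levels were 13.81, 13.82, 13.28, 13.84 and 13.80 in PB mice, against 12.003, 11.999, 11.89, 11.16 and 11.41 in CMC mice. The other PB mice lay between 13.80 and 13.84 and the third at 13.28, yet the gap between the groups was again 1.27. The change was 2.02 ± 0.22 (SE, adjusted p = 4.99e-05; limma), or 4.05-fold (2.97 to 5.53), between means of 13.71 ± 0.24 in PB mice and 11.69 ± 0.39 in CMC mice (SD, n = 5 each). The change without the 2 arrays that stood apart was 2.12 at 28 days and 2.13 at 90 days.

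Cyp2c50 (probe set 1418653_at) encodes another epoxygenase of arachidonic and linoleic acid. Its log2 levels at 28 days were 13.92, 13.81, 13.67, 13.84 and 12.87 in PB mice, against 12.59, 12.64, 11.81, 12.53 and 12.42 in CMC mice. The fifth PB mouse was only 0.23 above the highest CMC mouse, and the third CMC mouse was the lowest. The change was 1.22 ± 0.20 (SE, adjusted p = 0.0157; limma), or 2.34-fold (1.76 to 3.11), between means of 13.62 ± 0.43 in PB mice and 12.40 ± 0.34 in CMC mice (SD, n = 5 each). This call was lost when PB replicate 1, 2, 3 or 4 was left out (adjusted p between 0.0552 and 0.0822), and when only the 10 arrays of that duration were fitted (0.292). At 90 days the levels were 13.74, 13.74, 13.27, 13.87 and 13.997 in PB mice, against 12.86, 13.04, 12.71, 12.37 and 12.64 in CMC mice. The groups did not overlap, with a gap of 0.23. The change was 1.001 ± 0.20 (SE, adjusted p = 0.077, unadjusted p = 5.62e-05; limma), or 2.001-fold (1.51 to 2.66), between means of 13.72 ± 0.27 in PB mice and 12.72 ± 0.25 in CMC mice (SD, n = 5 each). Without the 2 arrays that stood apart it was called at both durations, with a change of 1.41 (adjusted p = 7.45e-05) at 28 days and 1.11 (adjusted p = 0.00146) at 90 days. Full separation of all 5 PB from all 5 CMC arrays, with PB above, was met by 0.395% of tested probe sets at 28 days and by 0.552% at 90 days, and by 3 of 8 members at each duration (Cyp2c37, Cyp2c54 and Cyp2c50). Separation with PB below was met by 0.182% of probe sets at 28 days, 0.432% at 90 days and 0 of 8 members at either.

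Cyp2c29 (probe set 1417651_at), an arachidonic acid epoxygenase and drug hydroxylase named in textbooks as a CAR target, had a much smaller difference. Its log2 levels at 28 days were 14.28, 14.29, 14.21, 14.30 and 13.85 in PB mice, against 13.81, 13.86, 13.35, 13.81 and 13.89 in CMC mice. Of the 5 PB mice 4 lay above every CMC mouse and the fifth lay among them. The change was 0.44 ± 0.12 (SE), or 1.36-fold (1.15 to 1.62), with an unadjusted p of 0.00132 and an adjusted p of 0.982 over all tested probe sets (limma). At 90 days the levels were 14.06, 14.09, 13.96, 14.36 and 14.26 in PB mice, against 14.08, 13.99, 13.74, 13.66 and 13.99 in CMC mice. Here 3 of the 5 PB mice exceeded every CMC mouse, and the change was 0.25 ± 0.12 (SE), or 1.19-fold (1.003 to 1.42, adjusted p = 0.845; limma). The group means were 14.19 ± 0.19 in PB mice and 13.74 ± 0.22 in CMC mice at 28 days, and 14.14 ± 0.16 in PB mice and 13.89 ± 0.18 in CMC mice at 90 days (SD, n = 5 each). Without the 2 arrays that stood apart the change was 0.53 at 28 days and 0.30 at 90 days, not called at either. Its signal lay not far below the highest signal of the arrays, where RMA can compress differences; the part of this in its small change was not tested.

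Cyp2c70 (probe set 1424273_at), the bile acid hydroxylase, was the steadiest member. Its log2 levels were 14.04, 13.87, 13.995, 13.71 and 13.99 in PB mice and 14.01, 13.65, 14.02, 13.90 and 13.74 in CMC mice at 28 days. At 90 days they were 14.14, 13.79, 14.04, 13.85 and 13.82 in PB mice and 13.94, 13.55, 13.43, 13.98 and 14.02 in CMC mice. All 4 groups overlapped, and the 20 mice spanned only a 1.63-fold range. The change was 0.06 (95% interval -0.19 to 0.30) at 28 days and 0.15 (-0.10 to 0.40) at 90 days. On the RMA scale any difference above about 1.24-fold at 28 days and 1.31-fold at 90 days lay outside the interval. The signal, like that of Cyp2c29, lay not far below the highest signal of the arrays, and any compression there was not tested. The changes without the 2 arrays that stood apart were 0.04 and 0.12.

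Cyp2c38 and Cyp2c39, neighbours in the cluster that encode an arachidonic acid epoxygenase and a retinoic acid hydroxylase in mouse, varied widely in every group. Cyp2c38 (probe set 1452501_at) had log2 levels of 8.69, 9.62, 8.91, 9.96 and 7.97 in PB mice and 8.92, 9.82, 7.36, 10.05 and 9.56 in CMC mice at 28 days, and of 9.25, 9.01, 7.79, 9.25 and 9.70 in PB mice and 10.13, 10.18, 9.67, 8.38 and 8.53 in CMC mice at 90 days. The lowest mouse of each group lay between 7.36 and 8.38, and the highest between 9.70 and 10.18. Its change was -0.11 (95% interval -1.16 to 0.94) at 28 days and -0.37 (-1.43 to 0.68) at 90 days. Cyp2c39 (probe set 1421363_at) had log2 levels of 8.41, 9.79, 8.59, 10.14 and 8.42 in PB mice and 10.16, 10.08, 8.03, 10.59 and 10.31 in CMC mice at 28 days, and of 9.35, 8.33, 8.20, 9.28 and 9.79 in PB mice and 10.25, 10.38, 9.72, 8.27 and 8.55 in CMC mice at 90 days. At each duration 4 of 5 PB mice were below the CMC mean, but the groups overlapped. Its change was -0.76 (-1.83 to 0.31) at 28 days and -0.44 (-1.51 to 0.63) at 90 days, so these intervals include both a fall of more than 2-fold and a small rise. Without the 2 arrays that stood apart the changes were 0.15 and -0.07 for Cyp2c38 and -0.60 and -0.25 for Cyp2c39, so the sign of Cyp2c38 at 28 days turned.

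Cyp2c44 (probe set 1424576_s_at, listed as Cyp2c23), an arachidonic acid epoxygenase of kidney and liver that lies apart from the others on chromosome 19, was the most variable member. Its log2 levels were 12.42, 11.95, 11.53, 11.62 and 8.74 in PB mice and 10.65, 12.44, 8.51, 8.91 and 12.20 in CMC mice at 28 days, and 12.46, 12.67, 10.51, 11.42 and 12.61 in PB mice and 12.25, 12.78, 12.16, 9.28 and 12.63 in CMC mice at 90 days. Mice at 8.51 to 9.28 stood beside others above 12 in 3 of the 4 groups, a 19.3-fold range over the 20 mice. The change was 0.71 (95% interval -0.997 to 2.42) at 28 days and 0.11 (-1.59 to 1.82) at 90 days, intervals too wide to show a 2-fold difference with 5 mice per group. Without the 2 arrays that stood apart it was 1.34 at 28 days and 0.47 at 90 days, not called at either. Its spread around the group means was larger than that of 99.8% of tested probe sets, against 97.9% for Cyp2c39, 97.7% for Cyp2c38, 84.5% for Cyp2c37, 71.0% for Cyp2c54, 66.3% for Cyp2c50, 17.0% for Cyp2c29 and 16.4% for Cyp2c70.

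**Figure D2:**
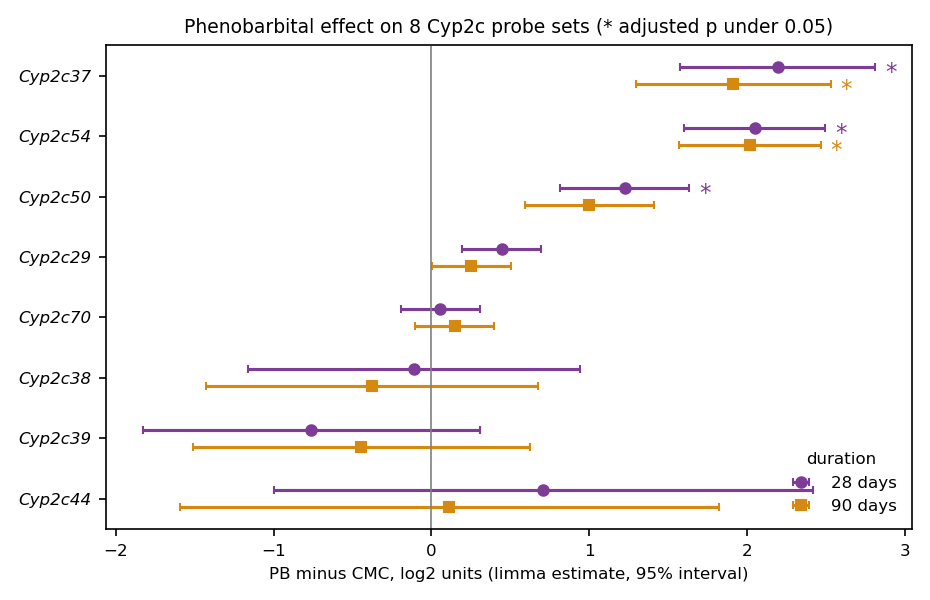
Change between PB and CMC mice (log2 units, limma estimate with 95% interval) for each member at 28 days (circles) and 90 days (squares), with an asterisk where the adjusted p was under 0.05. Cyp2c37 and Cyp2c54 sit near 2 at both durations and Cyp2c50 near 1, while the intervals of Cyp2c70, Cyp2c38, Cyp2c39 and Cyp2c44 include 0.

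Averaged over the durations, 3 of 8 members were called higher, where 0.115% of tested probe sets (41 of 35662) were called higher and 0.00841% (3) lower. At an unadjusted p under 0.05 there were 4 of 8 members beside 6.16% of probe sets. The averaged change was 2.05 ± 0.21 for Cyp2c37 (SE, adjusted p = 1.49e-05), 2.03 ± 0.15 for Cyp2c54 (2.16e-07) and 1.11 ± 0.14 for Cyp2c50 (2.55e-04). Cyp2c29 reached 0.35 ± 0.08 (SE, unadjusted p = 0.000504, adjusted p = 0.257), with all 5 PB mice above the CMC mean at each duration. With array weights its averaged change passed the threshold (adjusted p = 0.0119), as it did without the 2 arrays that stood apart (0.035). The other 4 members had averaged changes between -0.60 (Cyp2c39) and 0.41 (Cyp2c44), none of them called.

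The effect of phenobarbital was not shown to differ between the durations for any member. In limma, 0 of 8 members and 0 of 35662 probe sets (0%) were called for the difference of the effects, against 520 probe sets (1.46%) at an unadjusted p under 0.05, and the smallest unadjusted p among members was 0.27 (Cyp2c29). The effect at 90 days minus that at 28 days was -0.28 for Cyp2c37 (95% interval -1.16 to 0.59), -0.03 for Cyp2c54 (-0.66 to 0.61) and -0.22 for Cyp2c50 (-0.80 to 0.36). Between 90 and 28 days 0 of 8 members were called within PB mice, where 0.0028% of probe sets (1 of 35662) were called higher and 3.98% had an unadjusted p under 0.05, and 0 of 8 within CMC mice, where 0% were called and 1984 (5.56%) had an unadjusted p under 0.05. No member separated the durations fully in either treatment, where 0.303% of probe sets did so upward and 0.303% downward in PB mice, and 1.07% upward and 0.889% downward in CMC mice. The smallest unadjusted p among members was 0.414 within PB mice (Cyp2c44) and 0.113 within CMC mice (Cyp2c50). For Cyp2c37, Cyp2c54 and Cyp2c50 the order of the 4 group means was PB at 90 days, PB at 28 days, CMC at 90 days and CMC at 28 days; the PB groups overlapped each other, and so did the CMC groups.

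Whether the raised members truly differed from their relatives was tested within mice. For each of the 28 pairs of members at each duration, the difference between the 2 log2 levels was taken in every mouse and compared between PB and CMC mice by a two-sided exact permutation test, with adjustment over the 56 tests. With 5 mice against 5 the smallest possible p is 0.00794, adjusted here to 0.0193. Of the 15 pairs that set Cyp2c37, Cyp2c54 or Cyp2c50 against 1 of the other 5 members, 11 passed an adjusted p of 0.05 at 28 days and 12 at 90 days, each time with the larger response in the first 3. This grouping follows the measured changes, so the counts describe it and are no separate evidence for it.

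The response of Cyp2c54 exceeded that of Cyp2c70 by 1.99 log2 units at 28 days and 1.87 at 90 days, and that of Cyp2c29 by 1.60 and 1.77 (adjusted exact p = 0.0193 for each of these 4 tests). Cyp2c50 exceeded Cyp2c29 by 0.78 at 28 days and 0.75 at 90 days (adjusted exact p = 0.0193 for each). Any compression of the signals of Cyp2c29 and Cyp2c70 near the top of the scale would enter the differences taken against them and was not tested. Cyp2c37 exceeded Cyp2c38 by 2.31 and 2.29, and Cyp2c39 by 2.96 and 2.36 (adjusted exact p = 0.0193 for each). None of the pairs with Cyp2c44 passed; Cyp2c54 exceeded it by 1.34 at 28 days (adjusted exact p = 0.353) and 1.90 at 90 days (0.0593), with a spread of the pair differences of 1.94 and 1.19 among CMC mice.

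Among the raised members, Cyp2c54 responded more than Cyp2c50 by 0.82 at 28 days and 1.02 at 90 days, and Cyp2c37 more than Cyp2c50 by 0.97 and 0.91 (adjusted exact p = 0.0193 for each). Cyp2c37 and Cyp2c54 were not shown to differ, with Cyp2c37 ahead by 0.15 at 28 days (exact p = 0.635) and Cyp2c54 ahead by 0.11 at 90 days (exact p = 0.651). The pair differences between them had an SD of 0.53 in PB mice and 0.51 in CMC mice at 28 days, so a modest difference could have been missed. In PB mice Cyp2c54 minus Cyp2c50 was -0.01 ± 0.27 at 28 days and -0.02 ± 0.11 at 90 days, against -0.84 ± 0.39 and -1.03 ± 0.19 in CMC mice (SD, n = 5 each). The PB means of Cyp2c50 were 13.62 at 28 days and 13.72 at 90 days, not far below the highest signals. Any compression there, or probes that bind transcripts of both relatives, would enter this difference, and neither was tested. Among the 5 other members 1 of 10 pairs passed at 28 days and 0 of 10 at 90 days. That pair was Cyp2c38 over Cyp2c39, whose difference was -0.04 ± 0.33 in PB mice and -0.69 ± 0.36 in CMC mice at 28 days (SD, n = 5 each; response difference 0.65, adjusted exact p = 0.0329). At 90 days it was 0.01 ± 0.40 in PB mice and -0.06 ± 0.12 in CMC mice (response difference 0.07, exact p = 0.817).

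**Figure D3:**
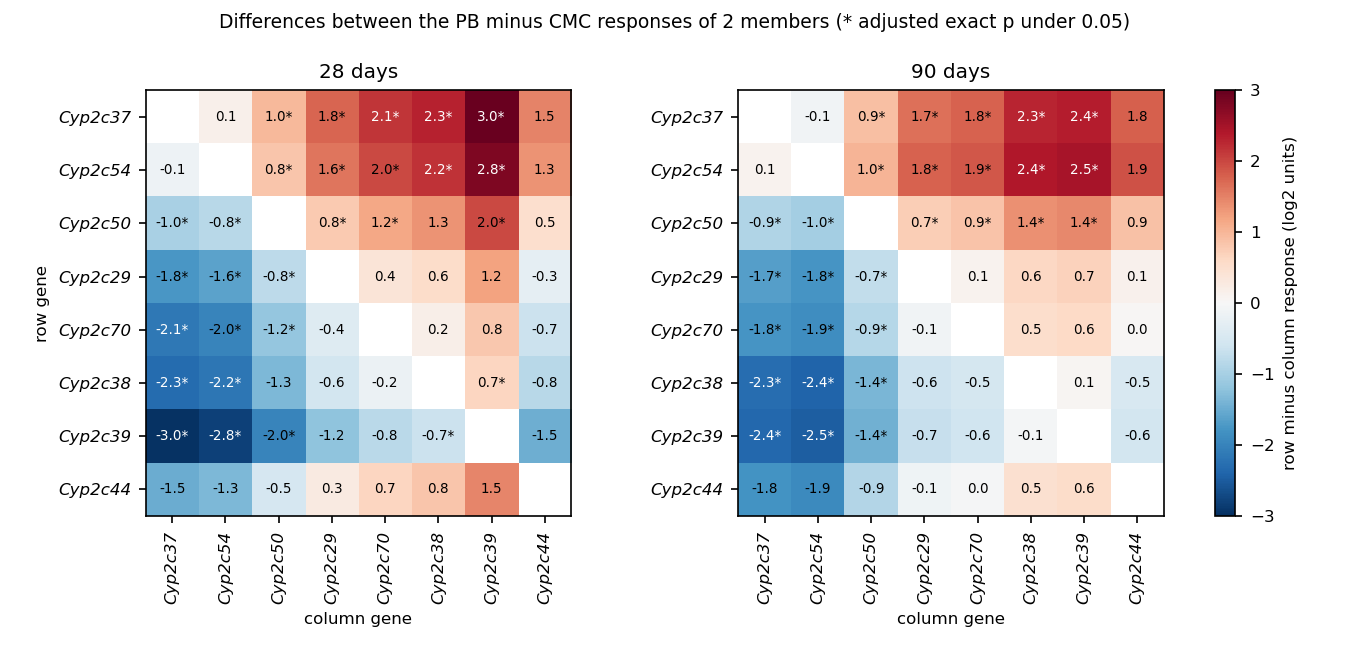
Difference between the responses (PB minus CMC, log2 units) of the row gene and the column gene at 28 days (left) and 90 days (right), with an asterisk where the adjusted exact p was under 0.05. The first 3 rows, Cyp2c37, Cyp2c54 and Cyp2c50, are positive against each of the other 5 members, with asterisks except against Cyp2c44 and, at 28 days, for Cyp2c50 against Cyp2c38.

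Along chromosome 19 (gene order from RefSeq, GRCm38.p6), Cyp2c37, Cyp2c54 and Cyp2c50 are consecutive protein-coding genes, followed at once by Cyp2c70. The changes along this stretch at 28 days were 2.20, 2.05, 1.22 and 0.06. Cyp2c29, Cyp2c39 and Cyp2c38 form a run of their own further up the cluster, with changes of 0.44, -0.76 and -0.11 at 28 days and 0.25, -0.44 and -0.37 at 90 days. Of 7 further Cyp2c genes listed for comparison, 3 had a probe set that was tested. Of these, 1 was called higher at 28 days and 2 at 90 days, beside 0.0336% and 0.0645% of all tested probe sets. Cyp2c55, the first of the protein-coding genes in this order and known mainly from intestine, changed by 5.35 ± 0.30 at 28 days and 5.18 ± 0.30 at 90 days (SE, adjusted p = 2.57e-09 and 4.81e-09; limma). Its neighbour Cyp2c65 changed by 1.76 (adjusted p = 0.137) at 28 days and 2.63 (8.57e-04) at 90 days. Cyp2c68, which lies between Cyp2c38 and Cyp2c37, changed by -0.07 and -0.19 and was not called. Probes of 1 member may also bind transcripts of close relatives, and since probe sequences were not used here the share of this in any member was not tested.

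**Figure D4:**
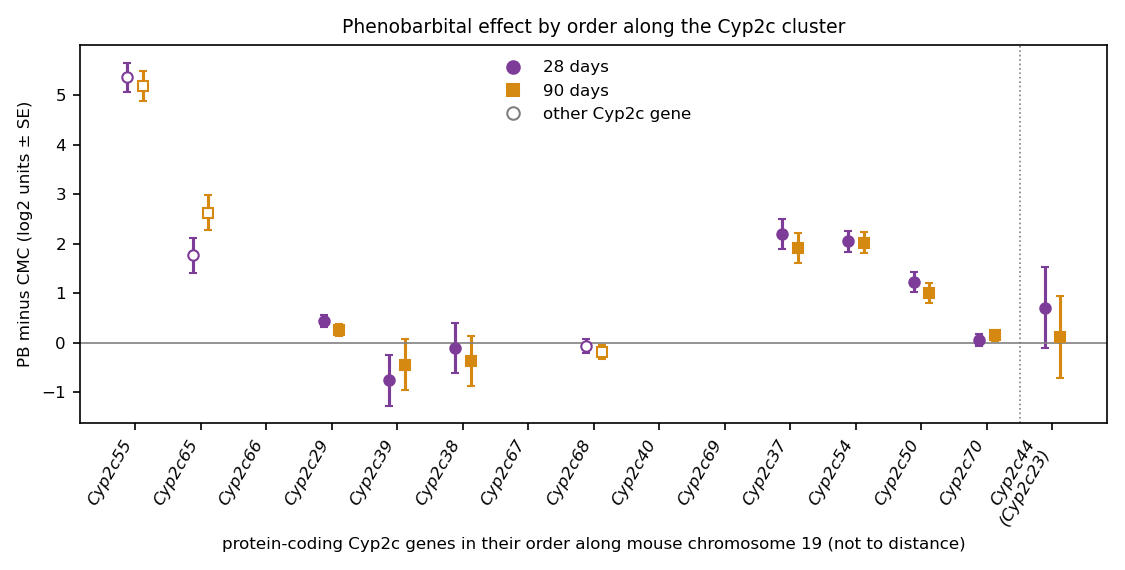
Change between PB and CMC mice (log2 units ± SE) at 28 days (circles) and 90 days (squares) for the protein-coding Cyp2c genes in their order along chromosome 19, evenly spaced; filled symbols are the members and open symbols other Cyp2c genes. Among the genes measured, Cyp2c55, Cyp2c65, Cyp2c37, Cyp2c54 and Cyp2c50 lie at 1 or above at both durations (Cyp2c65 not called at 28 days, Cyp2c50 not at 90 days) and the others at 0.71 or below; names without a symbol were not analysed here.

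Beyond the treatment effect, the members varied together from mouse to mouse. Each mouse's deviation from its group mean was correlated over the 20 mice for all pairs of members and for each member with the first principal component, 36 relations in all, with p-values from permutation tests adjusted over them. The deviations within a group are not independent and were shuffled over all 20 mice, which can make these p-values too small. Cyp2c38 and Cyp2c39 were the most closely related (Pearson's r = 0.93, permutation p = 1e-05, the smallest the draws can give, adjusted p = 0.00012; Spearman's rho = 0.91, permutation p = 1e-05). The r was 0.88 within PB mice and 0.96 within CMC mice, 0.91 without the 2 mice farthest from the median of Cyp2c38, and 0.97 after removal of the first principal component. A mouse with a low Cyp2c38 signal thus tended to have a low Cyp2c39 signal, whichever its group. Probes that bind transcripts of both relatives would raise the r of this and other pairs, and their part was not tested.

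Cyp2c37 and Cyp2c50 were related with r = 0.86 (permutation p = 1e-05, adjusted p = 0.00012; rho = 0.86, permutation p = 2e-05), 0.99 within PB mice and 0.62 within CMC mice, and 0.71 without the 2 farthest mice. Cyp2c29 and Cyp2c50 had r = 0.88 (permutation p = 1e-05, adjusted p = 0.00012; rho = 0.68, permutation p = 0.00144), and 0.76 without the 2 farthest mice. Cyp2c50 and Cyp2c54 had r = 0.72 (permutation p = 0.00034, adjusted p = 0.00153; rho = 0.60, permutation p = 0.00582), and 0.71 without the 2 farthest mice. Between Cyp2c37 and Cyp2c54, which were not shown to differ in response, r was 0.44 (permutation p = 0.0494, adjusted p = 0.0658; rho = 0.29, permutation p = 0.215). Cyp2c70 had a negative r in all 7 of its pairs, of which 2 passed after adjustment. These were -0.59 with Cyp2c38 (permutation p = 0.00677, adjusted p = 0.0118; rho = -0.56, permutation p = 0.0122; -0.57 without the 2 farthest mice) and -0.52 with Cyp2c39 (permutation p = 0.0204, adjusted p = 0.032; rho = -0.44, permutation p = 0.0526; -0.43 without the 2 farthest mice). The other 5 lay between -0.43 and -0.26, with adjusted permutation p-values of 0.0787 to 0.272. After removal of the first principal component, r was 0.73 for Cyp2c37 and Cyp2c50 and 0.86 for Cyp2c29 and Cyp2c50. It was 0.78 for Cyp2c50 and Cyp2c54 and 0.39 for Cyp2c37 and Cyp2c54. For Cyp2c70 it was -0.48 with Cyp2c38 and -0.45 with Cyp2c39.

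The scores of the first principal component moved with several members. Their r was 0.71 for Cyp2c37 (permutation p = 0.00068, adjusted p = 0.00223; rho = 0.49, permutation p = 0.0305) but 0.31 without the 2 mice farthest from the median score, so this relation rested on those mice. For Cyp2c50 the r of 0.68 (permutation p = 0.00172, adjusted p = 0.00413; rho = 0.42, permutation p = 0.0674) became 0.33 in the same way. For Cyp2c38 the r of 0.59 (permutation p = 0.00678, adjusted p = 0.0118; rho = 0.48, permutation p = 0.034) became 0.39. For Cyp2c44 r was 0.66 (permutation p = 0.00162, adjusted p = 0.00413; rho = 0.60, permutation p = 0.0064) and 0.48 without those mice, and for Cyp2c54 it was 0.24 (permutation p = 0.302, adjusted p = 0.302; rho = -0.04, permutation p = 0.871). The part of whatever sets this component in the mouse-to-mouse differences was not tested.

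**Figure D5:**
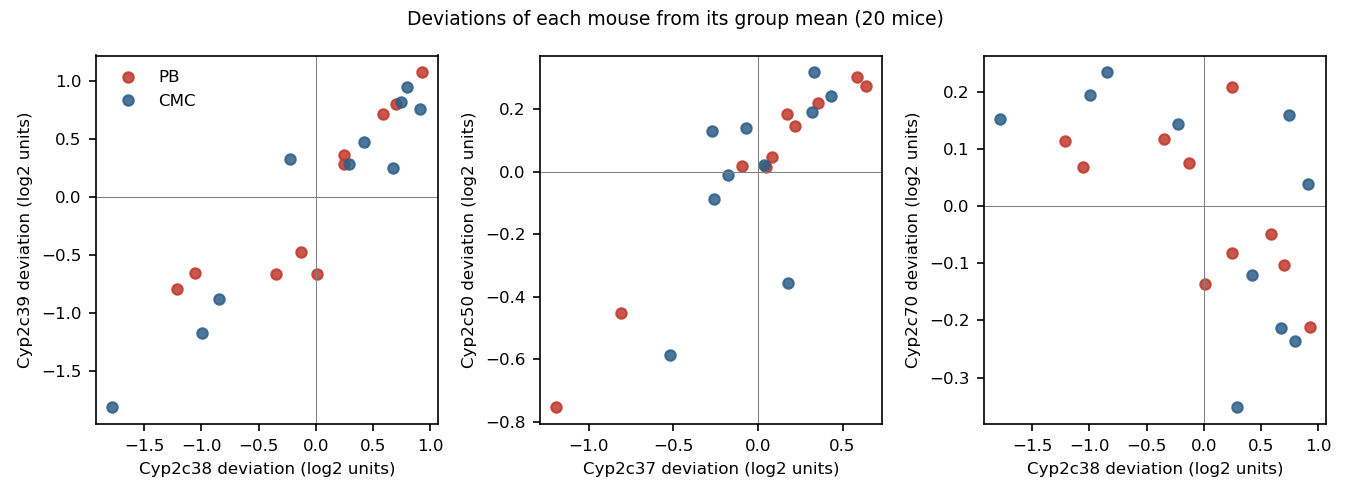
Deviation of each mouse from its group mean (log2 units) for Cyp2c38 and Cyp2c39 (left), Cyp2c37 and Cyp2c50 (middle) and Cyp2c38 and Cyp2c70 (right), with PB mice in red and CMC mice in blue. The left panel follows a single line in both treatments (r = 0.93), the middle one rises with 2 PB mice at its low end (r = 0.86), and the right one falls (r = -0.59).

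Outside the Cyp2c family, the gene whose probe set followed Cyp2c54 most closely over the 20 arrays was Cyp2b10, the most widely used marker of CAR activation (r = 0.97 over all arrays and 0.69 for deviations from group means). Ces2a, a carboxylesterase, came next (0.94 and 0.13), followed by 4931406C07Rik (0.93 and 0.57). For Cyp2c37 they were Ces2a (0.94 and 0.59), Cyp2b10 (0.93 and 0.60) and Cyp2b13 (0.92 and 0.74). For Cyp2c29 they were Lig1 (0.84 and 0.87), Gstm3 (0.81 and 0.85) and Aldh1a7 (0.81 and 0.71). The first value of each pair includes the treatment difference that the arrays share, and these are descriptions without a test.

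Among 25 tested genes of a list of enzymes and transporters known to respond to phenobarbital, 2 were called higher at 28 days and 5 at 90 days, 0 were called lower, and the median change was 0.64 and 0.37. Over all tested probe sets 0.0336% and 0.0645% were called higher, and the median change was 0.01 and 0.02. The list was chosen with earlier results of these data known, so its counts describe it and are no separate evidence. Cyp2b10 changed by 4.90 at 28 days (adjusted p = 8.56e-04) and 5.88 at 90 days (4.99e-05). Sult1e1, the estrogen sulfotransferase, changed by 1.90 (adjusted p = 0.0953) and 4.71 (3.42e-07), and Cyp2b13, a relative of Cyp2b10, by 2.54 (0.361) and 3.82 (0.00381). Of 5 tested genes of proteins that pass electrons to or accompany P450 enzymes, 0 were called at either duration, with medians of 0.07 at 28 days and 0.13 at 90 days. Their widest changes were -0.44 and -0.54 for Cyb5b, 0.07 and 0.23 for Cyb5r3, and 0.18 and 0.21 for Cyb5a. Only Cyb5a had an unadjusted p under 0.05 (0.0193 at 28 days and 0.00757 at 90 days, limma), beside 2.82% and 4.43% of all tested probe sets. Por, the gene of P450 reductase, was not analysed here, so the reductase itself is not covered.

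Of all tested probe sets 0.0336% were called higher at 28 days and 0.0645% at 90 days, with 0 called lower. The median changes over them were 0.01 and 0.02. Lists as short as those that follow would rarely hold a call, so counts of 0 in them carry little information. Of 22 tested nuclear receptors and liver transcription factors, which include the CAR gene Nr1i3 and its partner Rxra, 0 were called, with medians of -0.09 at 28 days and -0.38 at 90 days. The widest changes were those of the clock output factor Dbp (-0.25 and -1.16), of Onecut1 (-0.08 and -0.99) and of the estrogen receptor gene Esr1 (-0.84 and -0.69). Of 19 tested genes of arachidonic acid oxidation and epoxide hydrolysis outside the Cyp2c family, 0 were called, with medians of 0.08 and -0.07; Cyp4a31 (0.46 and -0.57), Cyp4a14 (-0.36 and -0.50) and Pla2g4a (0.49 and 0.16) had the widest changes. Of 14 pericentral genes, expressed around the central vein where drug metabolism is concentrated, 0 were called, with medians of -0.08 and -0.20 and the widest changes in Tbx3 (-0.20 and -0.95), Lect2 (0.44 and 0.84) and Cyp1a2 (0.72 and 0.30). Of 12 periportal genes 0 were called, with medians of -0.08 and -0.07 and the widest changes in Ass1 (-0.49 and -0.51), Cyp2f2 (-0.36 and -0.32) and G6pc (-0.33 and 0.20).

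The markers of other liver cells gave 1 call, where 0.0336% of all tested probe sets were called higher at 28 days and 0.0645% at 90 days. Of 9 tested neutrophil markers S100a8 was called higher at 90 days (6.28, adjusted p = 0.03) and was higher by 5.06 at 28 days (adjusted p = 0.361). The mean level of the 9 ran from 5.92 to 6.29 in PB mice and 5.31 to 5.57 in CMC mice at 28 days, and from 5.22 to 6.23 in PB mice and 4.99 to 5.29 in CMC mice at 90 days, without overlap at 28 days and with overlap at 90 days. The median change of the 9 was 0.20 and 0.10, so S100a8 moved far more than the list as a whole. Positive changes numbered 7 of 9 at 28 days and 6 of 9 at 90 days, and S100a9 changed by -0.15 and -0.01. Since S100a8 enters the mean of the 9, the separation at 28 days does not show a shift of the other markers. The part of S100a8 in the member changes was not tested. Markers of macrophages (9 genes), endothelium (8), stellate cells (9), cholangiocytes (5) and lymphocytes (5) had 0 calls at either duration, and the ranges of their mean levels overlapped between PB and CMC mice.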

How the data were processed

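The deposited table holds log2 intensities of Affymetrix 3' arrays that the authors made with RMA, per the submitters' processing notes (version and genome build: not given in the sources used here). No further transformation was applied, 0 sample columns were left unused, and titles gave the groups and replicate numbers. Each numbered array was taken as 1 mouse, and p-values measure only the spread between these samples. Precision is limited by the number of arrays. The members and gene lists were chosen with earlier results of these data known.

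Probe sets above their array's 25th percentile on at least 5 arrays were kept (35662 of 45037). limma 3.58.1 (R 4.3.3) fitted 1 mean per group to the 20 arrays with an intensity trend and 16 residual degrees of freedom. P-values were two-sided, adjusted by Benjamini-Hochberg over all probe sets tested, and called under 0.05. The script was tested on simulated data. Pairs of members were compared by exact permutation tests (scipy 1.17.1), 28 pairs where 9 genes would have given 36, since 1 gene had no probe set in the table used. Correlations used 100000 random permutations. Every member is named; of each list, up to 3 genes with the widest change are named, read through the probe set with the highest mean. Promoter windows are RefSeq's and were aligned with Biopython 1.88. Figures were drawn with matplotlib 3.10.9.

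The replicate numbers were checked for pairing: of 20 same-numbered pairs of arrays, 5 had deviations correlated above 0.1, so they were not taken to pair mice. Alternatives were filters, probe set choice, variance prior, array weights, normalization, a replicate block, and arrays left out.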

Additional observations from a re-analysis of the deposited data

Results flagged for a closer look

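In each group of 5 mice, the highest and the lowest value of each member were compared with their nearest neighbour by Dixon's ratio, which chance passes in about 1 in 20 groups. Of 32 such checks 9 passed. Mouse 5 of the PB group at 28 days was low in Cyp2c29 (13.85), Cyp2c37 (7.34), Cyp2c44 (8.74) and Cyp2c50 (12.87), and mouse 3 of the CMC group at 28 days was low in Cyp2c29 (13.35), Cyp2c39 (8.03) and Cyp2c50 (11.81). Mouse 3 of the PB group at 90 days was low in Cyp2c54 (13.28), and mouse 4 of the CMC group at 90 days was low in Cyp2c44 (9.28). All 9 were low values, and 7 of them belonged to the first 2 mice, whose scores on the first principal component were -145.6 and -52.5. The members share these mice, so the 9 are not independent.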

How the results depend on the processing

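Cyp2c54 kept its direction and its call at both durations under all 12 other settings and without each of the 20 arrays (adjusted p from 4.08e-06 to 0.0149). Cyp2c37 did so at 90 days; at 28 days its call was lost when only the groups compared were fitted (adjusted p = 0.0957), which left 1 member called at 28 days instead of 3; the cause was not tested. Cyp2c50 at 28 days lost its call in that fit (0.292) and without PB replicate 1 (0.0822), 2 (0.0776), 3 (0.0552) or 4 (0.0659). At 90 days it gained a call with 1 probe set per gene (0.0376), with the mean of probe sets (0.0382), with only the groups compared (0.0365), with array weights (4.05e-04), after centring on the 75th percentile (0.00574), without the 2 arrays that stood apart (0.00146), and without CMC 28-day replicate 3 (0.0307), PB 28-day replicate 5 (0.0079) or PB 90-day replicate 3 (0.0341). With the replicate number as a block, 3 members were called at 28 days and 2 at 90 days, and the call of no member changed at either duration (Cyp2c50, adjusted p = 0.0219 and 0.079). Probe sets called over the whole table at 28 days numbered 12, against 23 with array weights, 7 with the mean of probe sets and 6 with only the groups compared. The direction of members that were not called turned as follows, and the cause was not tested: Cyp2c38 at 28 days to 0.15 without the 2 arrays that stood apart and at 90 days to 0.0566 with array weights, and Cyp2c39 at 90 days to 0.0241 with array weights. With each array left out, Cyp2c38 at 28 days ran from -0.56 to 0.15 and Cyp2c44 at 90 days from -0.52 to 0.47. The number of pair tests passed ran from 23 to 30 of 56 with each array left out, and was 27 without the 2 arrays that stood apart. With 5 mice a group the changes of Cyp2c38 and Cyp2c39 had an SE of 0.50 and 0.51 log2 units. That of Cyp2c44 had an SE of 0.82. Under adjustment over all probe sets tested, changes well above 2-fold in Cyp2c38 and Cyp2c39, and still larger ones in Cyp2c44, could have been missed.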
